A study of Mus musculus with 6 samples.

Results

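Wnt proteins are secreted, lipid-carrying signals that bind Frizzled receptors together with the co-receptors Lrp5 or Lrp6 and thereby keep beta-catenin from being degraded, so that it can switch on genes with TCF/LEF factors. Secreted antagonists of the Sfrp and Dkk families act outside the cell, while the ligases Rnf43 and Znrf3 remove Frizzled receptors from the cell surface, and R-spondins bound to Lgr receptors hold these ligases back. In the liver, Wnt ligands and R-spondin 3 made by endothelial cells around the central vein are known to maintain the pericentral zone of hepatocytes.

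The genes described here are the rows of a gene count table from mouse liver whose symbols begin with Wnt, Fzd, Sfrp or Dkk and a digit, together with Frzb, Lrp5, Lrp6, Rnf43, Znrf3, Rspo1, Rspo3, Lgr4, Porcn and Wls, where at least 10 reads were counted over all mice. Of 26608 rows, 47 carried such a name and 33 reached that minimum: 8 Wnt ligands, 12 receptors and co-receptors, 6 secreted inhibitors, 5 genes of R-spondin signalling and receptor turnover, and 2 genes of ligand secretion. Of the 14 rows left out, 11 were Wnt ligand genes and 2, Wnt3 and Wnt8a, had no read in any mouse. Fzd9 with 10 reads and Sfrp5 with 11 lay just inside the minimum, and Wnt7b with 6 and Dkk2 and Sfrp2 with 5 each just outside it.

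RNA was taken from the livers of 6 mice aged 6 weeks, with 3 LiK and 3 LiKM animals, and messenger RNA libraries were sequenced. The labels do not spell the genotypes out and name no treatment, strain or sex. Knowledge of the published study, rather than the labels, gives that both genotypes carry the LiK alteration in their hepatocytes, and that the hepatocytes of LiKM mice also lack Mdm2, the ubiquitin ligase that keeps p53 low. What drives recombination is not given in the sources used here, and livers without the LiK alleles were not analysed here. The comparison asks which Wnt pathway genes differ between the livers labelled LiKM and those labelled LiK.

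The libraries held 19909993 to 24874343 counts. Levels are TMM-scaled CPM, that is the share of all counted reads after adjusting each library by its TMM factor, and 1 read corresponded to 0.0410 to 0.0503 CPM. Mdm2 itself had 28.7, 29.0 and 28.6 CPM in LiK and 122, 125 and 60.5 CPM in LiKM, and edgeR called it higher in LiKM (log2 fold change 1.83, SE 0.27, adjusted p = 0.0196). This is opposite to what a loss of its transcript would give. Its counts sum all exons, so a deletion inside Mdm2 cannot be read from this level and the genotype labels were not checked by it. The hepatocyte gene Alb had 80638 to 101784 CPM in LiK and 91378 to 103215 CPM in LiKM. All 8 hepatocyte markers were detected. Of these, 5 had a negative log2 fold change (median −0.19), while 49.5% of all genes tested had a positive one. In 3 markers every LiKM mouse lay below every LiK mouse, beside 11.8% of all genes tested. Serpina1c, which encodes an alpha-1-antitrypsin, was called lower (−0.93, SE 0.21, edgeR adjusted p = 0.0467), but of the fits that left out a library only that without LiK 3 called it. Each library is a separate animal by its code, but nothing in the labels gives litters or batches.

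Dkk3 and Wls rose and Lgr4 fell in LiKM, and no other of the 25 members that could be tested passed edgeR's quasi-likelihood test at a Benjamini-Hochberg adjusted p under 0.05. The 3 calls made up 12.0% of the tested members, beside 5.92% of all 13537 genes tested. Calls in the higher direction numbered 2, beside 5.11% of all genes, and 1 was in the lower direction, beside 0.813% of all genes. Log2 fold changes (LiKM minus LiK) were positive in 17 members and negative in 8, with a median of 0.46 over the 25, while the median over all genes tested was −0.0034. Before adjustment, 11 of the 25 had a p under 0.05, beside 22.4% of all genes. The other 8 members had too few counts for the default expression filter of edgeR and have no fold change here. Sfrp1 and Rspo1 entered the test with only 1 LiK and 2 LiKM libraries above the filter's level. Transcripts were counted in whole liver, so fewer cells of a type and less RNA per cell cannot be told apart.

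**Figure D1:**
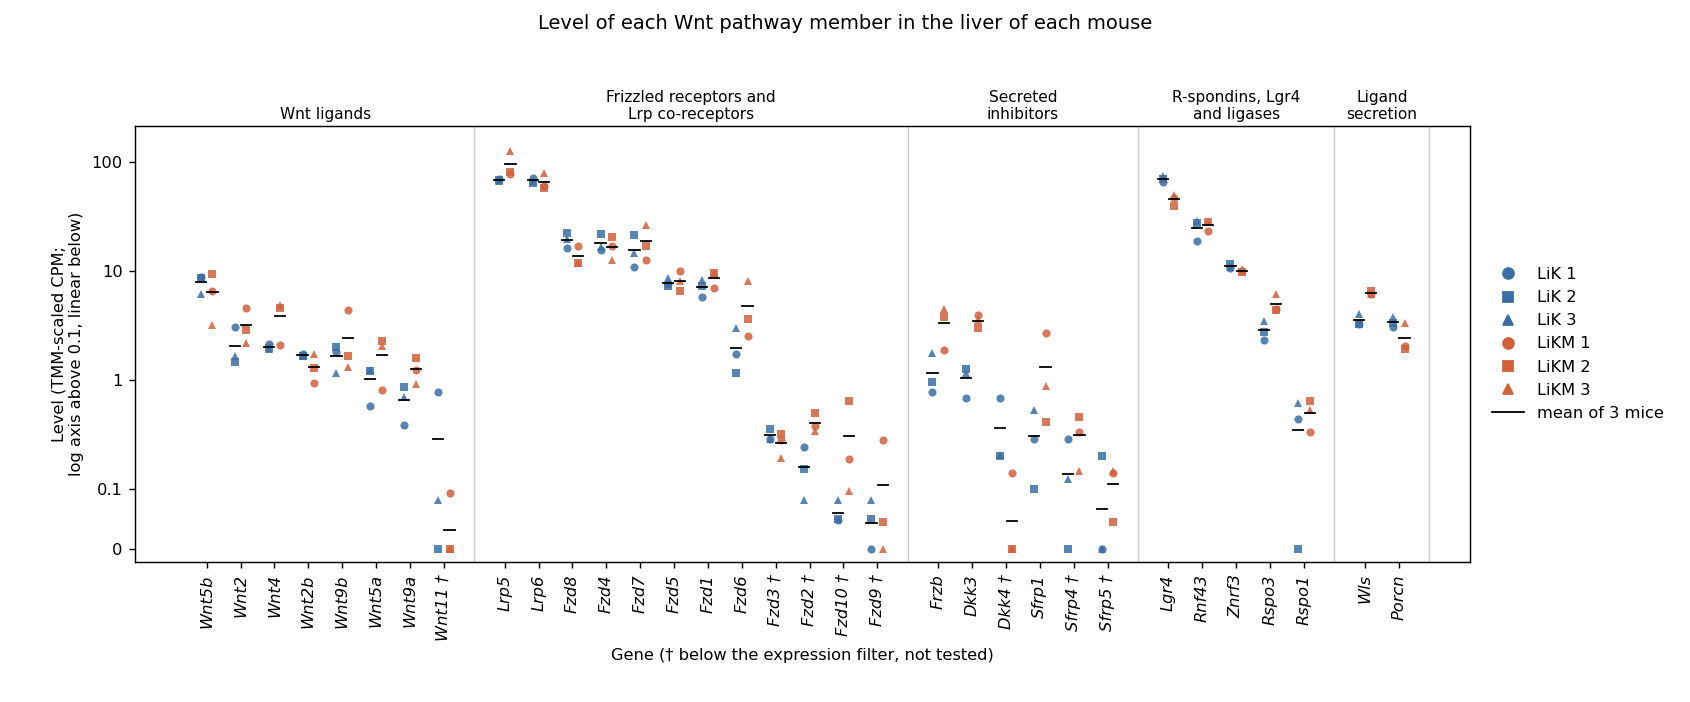
TMM-scaled CPM (vertical axis, logarithmic above 0.1 and linear below) of the 33 members in each of 6 mice, grouped by role, with blue points for LiK, orange points for LiKM, a shape for each mouse number and a black bar for the mean of 3 mice. Among the tested members, Dkk3, Frzb, Rspo3, Wls, Lrp5 and Wnt9a had every LiKM mouse above every LiK mouse. Lgr4 and Znrf3 had every LiKM mouse below. These made up 32.0% of the 25 tested members, beside 29.6% of all tested genes without overlap in either direction. Of the members below the filter, Fzd2 and Fzd10 lay above and Dkk4 below, but Fzd10 had 2 counts in both LiK 3 and LiKM 3.

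**Figure D2:**
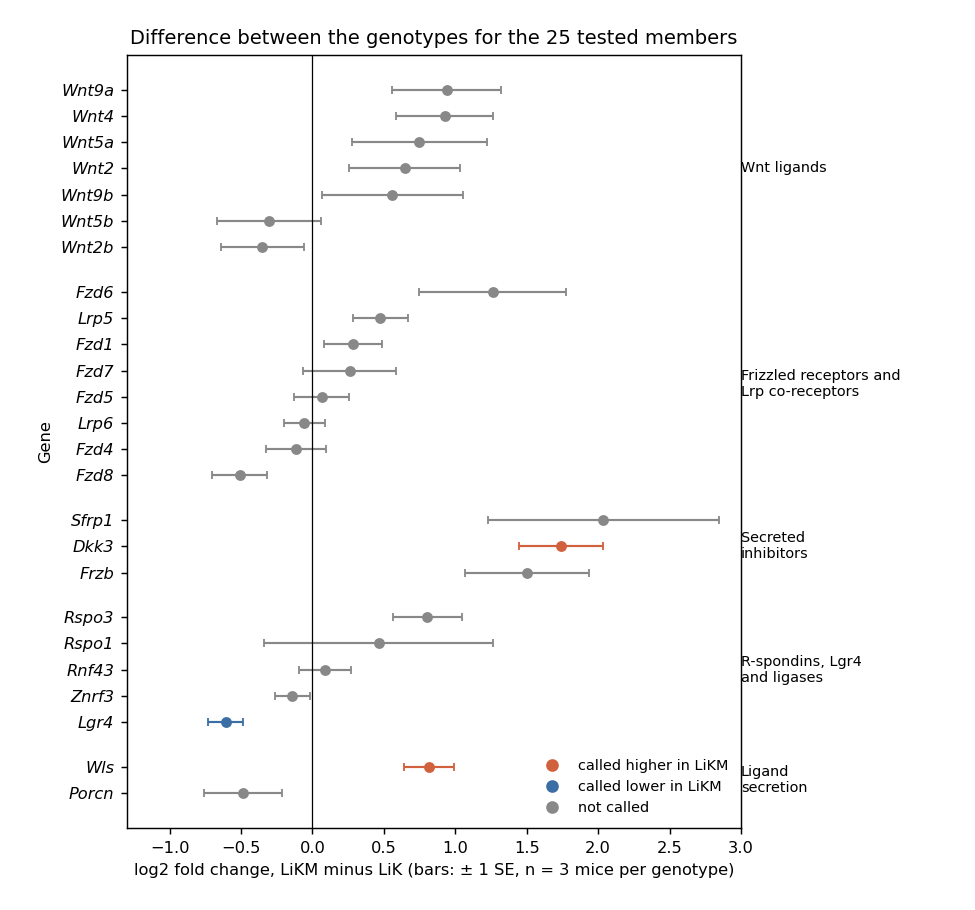
Log2 fold change (LiKM minus LiK, horizontal axis) with a bar of 1 SE on each side for the 25 tested members, grouped by role. The 2 orange points (Dkk3 and Wls) and the 1 blue point (Lgr4) are the members called at an adjusted p under 0.05, and the 3 secreted inhibitors lie farthest to the right.

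The 3 called members come from different steps of the pathway, and for 2 of them, Wls and Lgr4, RefSeq gives the sequence before the start of the gene. These stretches are shown because they belong to the genes that differed between the genotypes. Both hold the 250 bases before the start in GRCm38.p6, on the plus strand, at chr3:159839400-159839649 for Wls and chr2:109917397-109917646 for Lgr4. Capitals mark CTTTG, the core that TCF/LEF factors recognise, read on either strand (as CTTTG or CAAAG).
Wls: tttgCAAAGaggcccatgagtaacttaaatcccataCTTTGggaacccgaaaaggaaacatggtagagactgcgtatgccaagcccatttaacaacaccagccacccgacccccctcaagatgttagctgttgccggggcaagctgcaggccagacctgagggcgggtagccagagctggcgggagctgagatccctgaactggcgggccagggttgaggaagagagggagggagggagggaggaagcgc
Lgr4: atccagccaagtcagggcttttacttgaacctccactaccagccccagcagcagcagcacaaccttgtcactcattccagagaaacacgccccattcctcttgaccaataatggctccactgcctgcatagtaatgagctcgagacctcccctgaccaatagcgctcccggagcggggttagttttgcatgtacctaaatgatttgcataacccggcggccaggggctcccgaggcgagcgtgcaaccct
CTTTG occurs 2 times in the Wls stretch, beginning 246 and 214 bases before the start, and 0 times in that of Lgr4. It is a common word, present in 48.6% of the 32851 stretches of this length before RefSeq gene starts. The p53 half-site, searched on both strands, was found in neither stretch and in 7.13% of all of them. A match is no evidence of binding, and the absence of one says only that these letters are not in this window. RefSeq promoter entries were found for 19 of the 33 members, and Dkk3 is not among them.

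Among the secreted inhibitors, Dkk3 rose and Frzb and Sfrp1 were higher on average without passing the test. Dkk3 encodes a secreted member of the Dickkopf family that, unlike Dkk1, is not known as a strong Lrp6 antagonist. It had 0.674, 1.26 and 1.15 CPM in the LiK mice and 3.90, 2.95 and 3.52 CPM in the LiKM mice, so that the lowest LiKM mouse lay well above the highest LiK mouse. The means were 1.03 ± 0.311 and 3.46 ± 0.478 CPM (SD, n = 3 each), a fitted 3.35-fold rise (log2 fold change 1.74, SE 0.29, edgeR Benjamini-Hochberg adjusted p = 0.0248). Between 14 and 28 reads per mouse stood behind these LiK values, and between 65 and 83 behind those of LiKM.

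Frzb, also called Sfrp3, encodes a decoy that binds Wnt ligands through a Frizzled-like domain. It had 0.770, 0.956 and 1.76 CPM in LiK and 1.88, 3.72 and 4.44 CPM in LiKM. The groups did not overlap, but LiK 3 and LiKM 1 lay close to each other. The log2 fold change was 1.50 (SE 0.43), and edgeR did not call it (adjusted p = 0.0934), whereas the Wald test of DESeq2 called it (adjusted p = 0.0180), a test that called 10.5% of all genes. Sfrp1, a decoy of the same kind, had 0.289, 0.101 and 0.533 CPM in LiK and 2.68, 0.408 and 0.868 CPM in LiKM. Most of the higher Sfrp1 mean came from LiKM 1, and LiKM 2 lay below LiK 3. The edgeR log2 fold change was 2.04 (SE 0.81, adjusted p = 0.194), and it was 0.97 without LiKM 1.

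Markers of mesenchymal cells were measured beside these inhibitors. The summed level of 16 markers of hepatic stellate cells and fibroblasts was 353 to 590 CPM in LiK and 855 to 887 CPM in LiKM. Of these markers 5 were called higher, 31.25% beside 5.11% of all genes. Among them were Col1a1, which encodes a chain of type I collagen (log2 fold change 1.57, SE 0.30), and Pdgfra, a growth factor receptor gene of fibroblasts (1.24, SE 0.25). None of the 16 was called without LiK 1, LiK 2, LiKM 1 or LiKM 2, while 8 were called with DESeq2 or with library totals. The retinoid storage gene Lrat of quiescent stellate cells had a log2 fold change of 0.58 (SE 0.23) and was not called. The sum of 10 markers of portal fibroblasts and smooth muscle was 19.7 to 26.2 CPM in LiK and 41.7 to 109 CPM in LiKM, with the highest value in LiKM 1, where Sfrp1 was also highest. Of the 9 that could be tested, 2 were called higher, 22.2% beside 5.11% of all genes. These were Thy1, a surface protein gene of portal fibroblasts (1.64, SE 0.26), and the elastin gene Eln (2.35, SE 0.40). Neither was called without LiK 1, LiK 2, LiKM 1 or LiKM 2. Of 7 mesothelial markers, which summed to 70.9 to 111 CPM in LiK and 126 to 247 CPM in LiKM, 6 could be tested and edgeR called 0, with 1 at an unadjusted p under 0.05. That gene, the keratin gene Krt18, was called by DESeq2. Krt18, which hepatocytes also express, made up most of this sum, at 61.2 to 98.9 CPM in LiK and 119 to 236 CPM in LiKM, and the other 6 markers summed to 3.22 to 12.0 CPM in LiK and 6.86 to 13.1 CPM in LiKM, with overlap. None of the markers in these 3 lists was at 0 in all libraries. The part of these cells in the results for the inhibitors was not tested.

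The remaining inhibitors were scarce. Dkk4, a Dickkopf antagonist that is itself a known beta-catenin target, was read 14, 4 and 5 times in the LiK mice and 3, 0 and 0 times in the LiKM mice. These counts did not overlap between the genotypes, but they lay below the filter. A count of 0 in LiKM 2 or LiKM 3 allows a level of up to 0.136 or 0.145 CPM (3 counts, counting error only). The decoy genes Sfrp4 (0 to 6 reads per LiK mouse and 3 to 10 per LiKM mouse) and Sfrp5 (0 to 4 and 1 to 3) overlapped.

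Of the R-spondin and receptor turnover genes, Lgr4 fell. Lgr4 encodes an R-spondin receptor that hepatocytes express. It had 64.5, 68.4 and 74.2 CPM in LiK and 46.7, 39.5 and 49.8 CPM in LiKM, with a clear gap between the genotypes. Of the 8 hepatocyte markers, 1 (12.5%) was called lower, beside 0.813% of all genes. The 8 markers summed to 113290 to 136456 CPM in LiK and 119006 to 133958 CPM in LiKM. The part of hepatocytes in the Lgr4 result was not tested. The Lgr4 means were 69.0 ± 4.89 and 45.3 ± 5.29 CPM (SD, n = 3 each), a fitted level 1.52-fold lower in LiKM (log2 fold change −0.61, SE 0.12, edgeR Benjamini-Hochberg adjusted p = 0.0368). With library totals in place of TMM scaling, Lgr4 had a log2 fold change of −0.45 and an adjusted p of 0.0689 and was not called. That scaling moved the median of all genes by 0.16 on the log2 scale.

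Rspo3, which encodes the R-spondin of central vein endothelium, did not pass the test. Its levels were 2.31, 2.77 and 3.45 CPM in LiK and 4.46, 4.36 and 6.12 CPM in LiKM, so that all LiKM mice lay above all LiK mice. The log2 fold change was 0.80 (SE 0.24, edgeR adjusted p = 0.103). An antisense gene model of GENCODE covers 13.1% of the Rspo3 exon length, and the strand setting of the counting is not given in the sources used here. Rspo1, which encodes another R-spondin, was read 0 to 15 times per LiK mouse and 7 to 14 times per LiKM mouse (0.46, SE 0.80).

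The ligases that remove Frizzled receptors differed little in mean level. Znrf3 had 10.5, 11.5 and 10.8 CPM in LiK and 9.87, 9.62 and 10.3 CPM in LiKM, a difference with a log2 fold change of −0.14 (SE 0.12, edgeR adjusted p = 0.536). These values did not overlap, but their gap was smaller than the spread within LiK. Rnf43, which is also a known beta-catenin target, had 18.5, 27.4 and 28.5 CPM in LiK and 23.1, 28.0 and 28.0 CPM in LiKM. Its groups overlapped (log2 fold change 0.087, SE 0.18).

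Of the genes of ligand secretion, Wls rose. Wls encodes the carrier that takes Wnt proteins to the cell surface and is needed by every cell that releases them. It had 3.23, 3.27 and 4.02 CPM in LiK and 6.06, 6.44 and 6.07 CPM in LiKM, with little spread among the LiKM mice. The means were 3.51 ± 0.447 and 6.19 ± 0.217 CPM (SD, n = 3 each), a fitted 1.76-fold rise (log2 fold change 0.82, SE 0.17, edgeR Benjamini-Hochberg adjusted p = 0.0414). Without an expression filter the adjusted p was 0.0502, just past the threshold. Porcn, which encodes the enzyme that attaches the lipid to Wnt proteins, had 3.03, 3.32 and 3.78 CPM in LiK and 2.02, 1.91 and 3.33 CPM in LiKM. LiKM 3 lay within the LiK range, and edgeR did not call the difference (−0.48, SE 0.27).

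Wls is expressed by several liver cell types, and their markers did not all behave alike. The summed level of 12 Kupffer cell and macrophage markers was 297 to 375 CPM in LiK and 444 to 609 CPM in LiKM. Of these markers 6 were called higher, 50% beside 5.11% of all genes, among them Cd68 (log2 fold change 0.97, SE 0.20) and C1qa (0.81, SE 0.15). The count of 6 was 0 without LiK 1, LiK 2, LiK 3 or LiKM 2, and 2 without LiKM 1. All 12 markers had a positive log2 fold change and an unadjusted p under 0.05 in edgeR, the latter beside 22.4% of all genes tested. The macrophage gene Clec4f, specific to Kupffer cells, had non-overlapping mice but was not called (0.48, SE 0.15). The 14 sinusoidal endothelial markers summed to 340 to 376 CPM in LiK and 309 to 486 CPM in LiKM, with 0 called by edgeR, 4 at an unadjusted p under 0.05, 0 called by DESeq2 and 1 by limma-voom. Pecam1, a junction protein gene of endothelium, had a log2 fold change of 0.46 (SE 0.16) and the scavenger receptor gene Stab2 one of 0.19 (SE 0.12). Of the 14, 10 were positive and 4 negative, the lowest being the hyaluronan receptor gene Lyve1 at −0.63 (SE 0.25), named here after its value was seen. No marker in these lists was at 0 in all libraries, and the part of these cells in the Wls result was not tested.

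None of the 7 tested Wnt ligands was called by edgeR, and only Wnt4 and Wnt9a had an unadjusted p under 0.05. DESeq2 and limma-voom called none of the ligands either. Wnt2 and Wnt9b, the ligands known from liver endothelium, overlapped between the genotypes. Wnt2 had 3.03, 1.46 and 1.64 CPM in LiK and 4.56, 2.86 and 2.17 CPM in LiKM (log2 fold change 0.64, SE 0.39, edgeR adjusted p = 0.383). Wnt9b had 1.78, 2.01 and 1.15 CPM in LiK and 4.32, 1.63 and 1.30 CPM in LiKM (0.56, SE 0.49, edgeR adjusted p = 0.549). Both were highest in LiKM 1, and without that library the difference in Wnt9b was −0.19 and that in Wnt2 was 0.27. LiKM 1 also had the highest sum of sinusoidal endothelial markers, 486 CPM, beside 448 and 309 CPM in LiKM 2 and LiKM 3. The 8 central vein endothelial markers summed to 62.2, 38.4 and 43.0 CPM in LiKM 1, LiKM 2 and LiKM 3, and to 33.1 to 41.2 CPM in LiK. Of these 8, edgeR called 0, DESeq2 called 2 and limma-voom called 0. With library totals in place of TMM scaling, 1 was called. The part of endothelial cells in these values was not tested.

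Wnt4 and Wnt5a, ligands that often act without beta-catenin, showed another pattern. Wnt4 had 2.12, 1.96 and 1.93 CPM in LiK and 2.07, 4.54 and 4.82 CPM in LiKM. LiKM 1 was at the LiK level and the other LiKM mice were more than double that level, giving a log2 fold change of 0.93 (SE 0.34, edgeR adjusted p = 0.166). Wnt5a had 0.578, 1.21 and 1.23 CPM in LiK and 0.799, 2.27 and 2.02 CPM in LiKM, again with LiKM 1 lowest of its genotype (0.75, SE 0.47). Wnt9a was the only ligand without overlap, at 0.385, 0.856 and 0.698 CPM in LiK and 1.22, 1.59 and 0.916 CPM in LiKM. Its log2 fold change was 0.94 (SE 0.38, edgeR adjusted p = 0.206).

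The other ligands had negative fold changes or too few counts. Wnt5b had 8.76, 8.61 and 6.11 CPM in LiK and 6.53, 9.26 and 3.18 CPM in LiKM, with the lowest value in LiKM 3 (log2 fold change −0.30, SE 0.37). Wnt2b lay at 1.64 to 1.73 CPM in the LiK mice and at 0.940, 1.27 and 1.74 CPM in LiKM (−0.35, SE 0.29). Wnt11 had 16 counts in LiK 1 and 0 to 2 in each other library, so its level in LiK rested on a single mouse.

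To compare ligands with each other, levels were divided by the exon length of each gene in GENCODE M21. On this scale, CPM per kilobase, Wnt5b had the highest mean of the ligands in both genotypes, 2.95 ± 0.560 for LiK and 2.38 ± 1.15 for LiKM (SD, n = 3 each). Wnt2 came next with 0.907 ± 0.382 and 1.42 ± 0.545, and then Wnt4 with 0.478 ± 0.0241 and 0.908 ± 0.361. Wnt5b made up 50.9% to 57.8% of the summed ligand level in the LiK mice and 26.4% to 48.0% in the LiKM mice, so that these shares did not overlap. Its share was lowest in LiKM 3, where Wnt4 held 25.3%, beside 7.97% to 10.2% in LiK. The summed ligand level itself overlapped, with 4.52 to 6.34 CPM per kilobase in LiK and 4.55 to 7.27 in LiKM. These shares were read from the length-scaled levels after they were seen and were not tested.

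**Figure D3:**
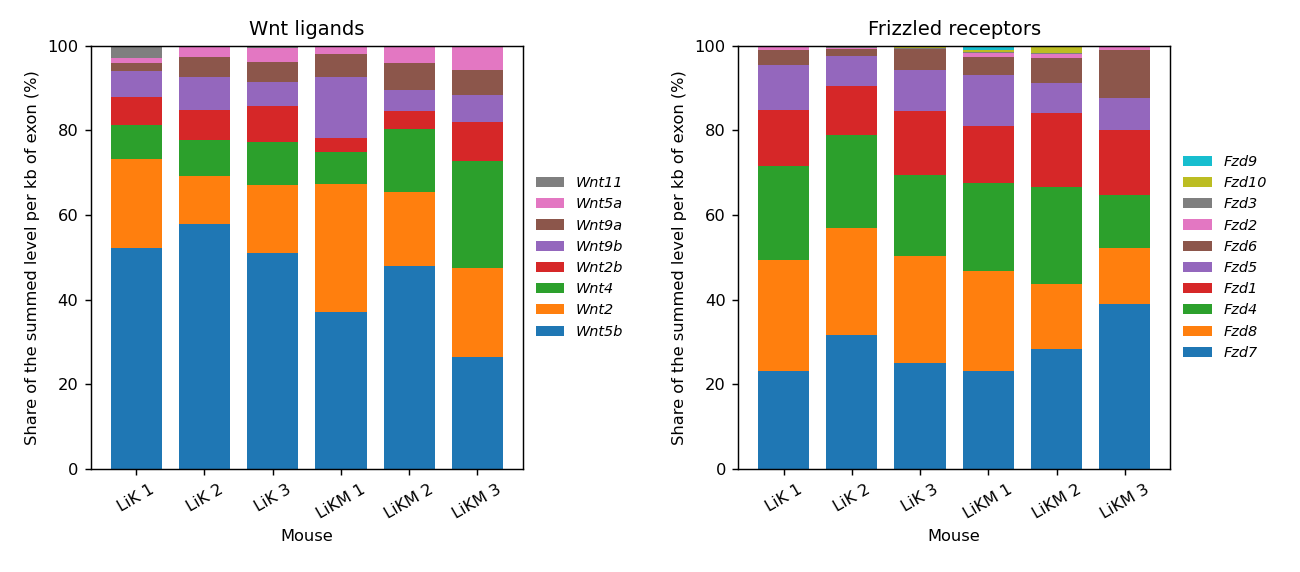
Share of each Wnt ligand (left) and each Frizzled receptor (right) in the summed level per kilobase of exon of its family (vertical axis, percent), 1 bar per mouse. Wnt5b held 50.9% to 57.8% of the ligand level in the LiK mice and 26.4% to 48.0% in the LiKM mice, and Fzd8 held 25.2% to 26.1% of the Frizzled level in LiK and 13.3% to 23.5% in LiKM.

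None of the 8 tested receptors and co-receptors was called by edgeR, DESeq2 or limma-voom, and 3 of them, Fzd8, Lrp5 and Fzd6, had an unadjusted p under 0.05 in edgeR. Lrp5, a co-receptor, had 69.4, 67.6 and 67.0 CPM in LiK and 77.1, 80.8 and 126 CPM in LiKM. All LiKM mice were above the narrow LiK range, but LiKM 3 stood far from the other LiKM mice. The log2 fold change of 0.48 (SE 0.19, edgeR adjusted p = 0.202) was 0.19 without LiKM 3. Lrp6, its close relative, had 70.6, 64.0 and 66.9 CPM in LiK and 59.2, 56.7 and 77.9 CPM in LiKM, with overlap (−0.056, SE 0.14).

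Fzd6, a Frizzled known from planar polarity, was also highest in LiKM 3. Its levels were 1.73, 1.16 and 3.00 CPM in LiK and 2.54, 3.63 and 8.10 CPM in LiKM, and the log2 fold change of 1.26 (SE 0.51, edgeR adjusted p = 0.204) was 0.62 without LiKM 3. Fzd8 had 16.0, 22.1 and 19.4 CPM in LiK and 16.9, 11.8 and 11.8 CPM in LiKM. LiKM 1 lay within the LiK range, and the log2 fold change was −0.51 (SE 0.19, edgeR adjusted p = 0.179).

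The other Frizzled genes with enough counts overlapped between the genotypes. Fzd7 spread widely within each genotype, from 10.8 to 21.1 CPM in LiK and from 12.6 to 26.2 CPM in LiKM (log2 fold change 0.26, SE 0.32). Fzd1 had 5.73 to 8.21 and 6.86 to 9.48 CPM (0.28, SE 0.20). Fzd4, which also serves as the receptor for norrin in endothelium, had 15.4 to 21.6 and 12.5 to 20.2 CPM (−0.11, SE 0.21). Fzd5 had 7.20 to 8.54 and 6.44 to 9.91 CPM (0.063, SE 0.19). An antisense gene model covers 17.8% of the Fzd5 exon length.

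Per kilobase of exon, Fzd7, Fzd8 and Fzd4 were the leading Frizzled genes in LiK, at 3.41 ± 1.15, 3.21 ± 0.512 and 2.66 ± 0.497 CPM per kilobase (SD, n = 3), which did not differ beyond their spread. In LiKM the values were 4.09 ± 1.54 for Fzd7, 2.26 ± 0.492 for Fzd8 and 2.45 ± 0.570 for Fzd4. The summed Frizzled level was 10.3 to 14.7 CPM per kilobase in LiK and 12.0 to 14.8 in LiKM. Both Lrp genes were above every Frizzled gene in mean level per kilobase in either genotype, with Lrp5 at 6.98 ± 0.131 in LiK and 9.72 ± 2.80 in LiKM, and Lrp6 at 4.91 ± 0.245 and 4.73 ± 0.847.

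The 4 receptors below the filter were Fzd2, Fzd3, Fzd9 and Fzd10. Fzd2 was read 5, 3 and 2 times in the LiK mice and 8, 11 and 7 times in the LiKM mice, without overlap. Fzd10 was read 1, 1 and 2 times against 4, 14 and 2 times, so that LiKM 3 had no more counts than LiK 3. Fzd3 had 4 to 7 counts in each library, and Fzd9 had 0 to 6.

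Over the 25 tested members, 8 (32.0%) had mice that did not overlap between the genotypes, beside 29.6% of all genes tested. Higher in LiKM were 6 of them (Dkk3, Frzb, Rspo3, Wls, Lrp5 and Wnt9a), beside 17.8% of all genes, and lower were Lgr4 and Znrf3, beside 11.8% of all genes. The share of members without overlap was thus near that of all genes.

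The 3 calls were lost in most fits that left out a library, while their fold changes moved little. Dkk3 and Lgr4 were called without LiKM 3, with edgeR adjusted p of 0.0419 and 0.0345, and Wls was called in none of the 6 fits that left out a library. Without LiK 1, LiK 2, LiK 3, LiKM 1 or LiKM 2, 0 members were called, in fits that called 31, 19, 311, 376 and 47 of all genes. The fold changes ranged from 1.52 to 1.90 for Dkk3, from 0.76 to 0.93 for Wls and from −0.70 to −0.54 for Lgr4 on the log2 scale. The adjusted p ranged from 0.0419 to 0.0817 for Dkk3, from 0.0345 to 0.117 for Lgr4 and from 0.0604 to 0.148 for Wls.

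**Figure D4:**
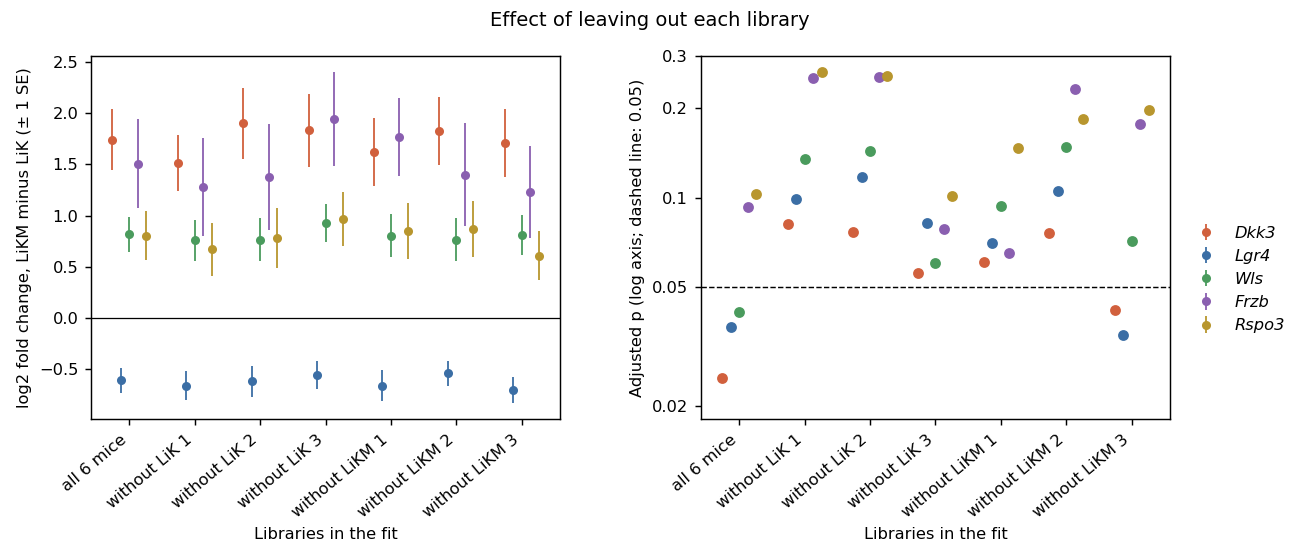
Left, log2 fold change with a bar of 1 SE on each side, and right, edgeR adjusted p on a log axis, for Dkk3, Lgr4, Wls, Frzb and Rspo3 with all 6 mice and with each library left out. No fold change changes sign. With a library left out, that of Frzb ranges from 1.23 to 1.94 and that of Rspo3 from 0.61 to 0.97. Of the 30 adjusted p with a library left out, only those of Dkk3 and Lgr4 without LiKM 3 lie below the dashed line at 0.05.

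The wider pathway was read from 7 lists holding 137 genes, Rnf43 and Znrf3 among them, of which 111 could be tested. Of these, 6 were called higher and 1 lower, together 6.31% beside 5.92% of all genes, and the median log2 fold change was 0.036. Without LiK 1, LiK 2, LiK 3 or LiKM 2, 1, 0, 3 and 1 of them were called. In 4 lists edgeR called 0 genes: other Wnt receptors and co-receptors (14 tested, median 0.51, 4 at an unadjusted p under 0.05), other secreted modulators (4 tested, median 0.35, 2 at that level), the beta-catenin destruction complex and its relay (24 tested, median −0.0064, 3 at that level) and the TCF/LEF complex (15 tested, median −0.16, 2 at that level). DESeq2 called 3, 2, 0 and 2 genes in them, and limma-voom 2, 0, 0 and 1. Of the 2 TCF/LEF genes that DESeq2 called, 1 is also on the list of T cell markers used below. The part of T cells in that call was not tested. Beta-catenin itself, Ctnnb1, had 256 to 265 CPM in LiK and 244 to 293 CPM in LiKM (log2 fold change 0.016, SE 0.11), and the liver's main TCF gene, Tcf7l2, had a difference of 0.12 (SE 0.17).

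Of 15 tested general targets of beta-catenin and feedback genes, 2 rose and 0 fell, 13.3% called beside 5.92% of all genes. In 13 the log2 fold change was positive (median 0.61), as in 49.5% of all genes tested. The 2 called were Ccnd1, which encodes cyclin D1 (log2 fold change 2.06, SE 0.44), and Cd44, a hyaluronan receptor gene (1.18, SE 0.20). Both are also known to respond to other pathways, and neither was called without LiK 1, LiK 2 or LiKM 2. The feedback inhibitor gene Axin2 had 6.93, 6.29 and 4.51 CPM in LiK and 9.63, 5.81 and 16.1 CPM in LiKM, with LiKM 2 inside the LiK range (0.83, SE 0.37, edgeR adjusted p = 0.239). The other feedback inhibitor genes Notum (0.33, SE 0.13) and Nkd1 (0.51, SE 0.21) had non-overlapping mice but were not called. The R-spondin receptor gene Lgr5 (0.61, SE 0.38) and the repressor gene Tbx3 (−0.27, SE 0.22) overlapped.

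Of 25 pericentral hepatocyte genes, all tested, 2 rose and 1 fell (median 0.087), and 22 did not pass the test. The 3 calls made up 12.0% of the list, beside 5.92% of all genes. Calls in this list numbered 1, 0, 2, 5, 1 and 3 without LiK 1, LiK 2, LiK 3, LiKM 1, LiKM 2 and LiKM 3. Gstm3, a glutathione transferase gene (3.62, SE 0.38, edgeR adjusted p = 0.0104), and Rdh9, a retinol dehydrogenase gene (0.87, SE 0.11, edgeR adjusted p = 0.0153), rose. Slc22a3, an organic cation transporter gene, fell by 1.93 on the log2 scale (SE 0.33, edgeR adjusted p = 0.0251). Of the 6 fits that left out a library, 5 called Gstm3, 3 called Rdh9 and 2 called Slc22a3. The glutamine synthetase gene Glul, the classic marker of the innermost pericentral cells, had 871, 702 and 674 CPM in LiK and 499, 274 and 388 CPM in LiKM without overlap. The difference of −0.95 (SE 0.23) was above the edgeR threshold (adjusted p = 0.0587). Cyp2e1, a pericentral cytochrome gene, had 4261 to 5613 CPM in LiK and 2346 to 3713 CPM in LiKM (−0.81, SE 0.23, edgeR adjusted p = 0.0873). DESeq2 called 6 genes of this list, Glul and Cyp2e1 among them.

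Of 25 tested genes of the planar polarity and calcium branch, 2 rose and 0 fell (median 0.16), 8% called beside 5.92% of all genes. Both, Nfatc4 (1.97, SE 0.32) and Nfatc2 (2.15, SE 0.48), encode NFAT transcription factors and were scarce, with 5 to 9 and 3 to 9 counts in the LiK libraries. These lay below the filter's level of about 10 counts in every LiK library, so both genes entered the test only through the LiKM libraries. A gene that enters in this way can hardly be called lower. Their edgeR adjusted p were 0.0226 and 0.0467. Of the 6 fits that left out a library, 1 called Nfatc4 and 0 called Nfatc2. Nfatc2 is also known from T cells, whose 14 markers summed to 3.90 to 5.64 CPM in LiK and 18.8 to 27.0 CPM in LiKM. Of 11 tested markers, 10 were called higher, 90.9% beside 5.11% of all genes. That count was 1, 0, 5, 5 and 1 without LiK 1, LiK 2, LiK 3, LiKM 1 and LiKM 2. With a filter of 1 CPM in 3 libraries, only 6 of the markers were tested and 5 were called. The T cell gene Cd3g had 2 to 5 counts in the LiK libraries and 19 to 44 in LiKM. It passed the default filter only through LiKM. The part of T cells in the Nfatc2 value was not tested.

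**Figure D5:**
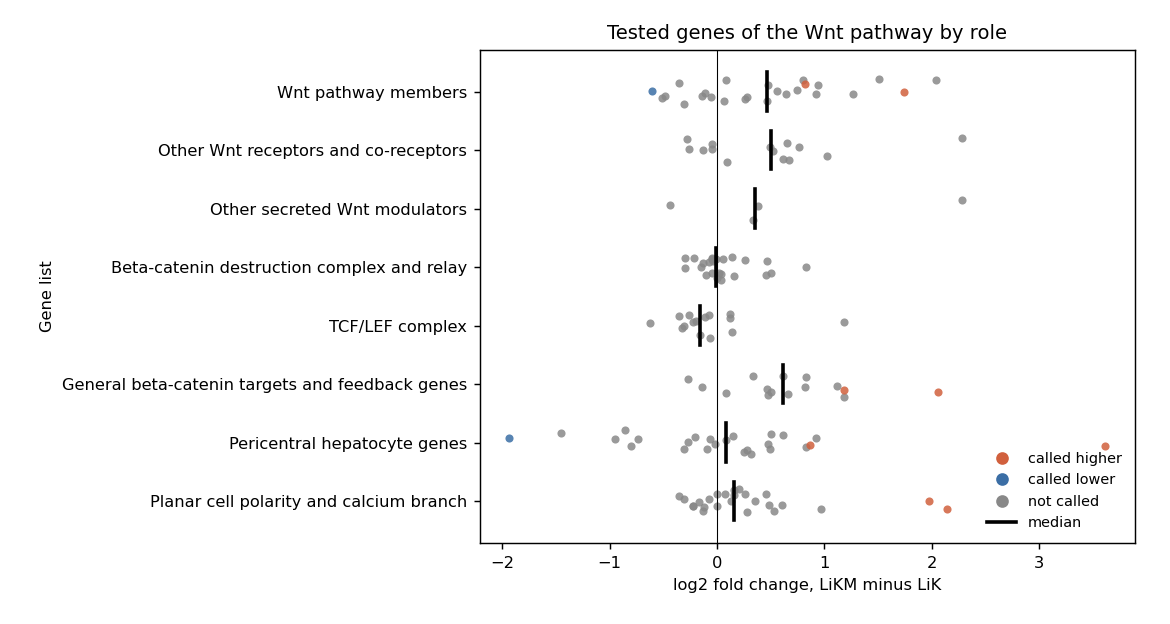
Log2 fold change (LiKM minus LiK, horizontal axis) of each tested gene of the Wnt members described here and of 7 further pathway lists, with coloured points for called genes and a black bar for each median. Medians lie between −0.16 (TCF/LEF complex) and 0.61 (general beta-catenin targets), and 4 of the 7 further lists hold 0 called genes.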

How the data were processed

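Raw read counts per gene symbol for 6 liver libraries were deposited as 1 table. Per the labels' protocols a stranded mRNA kit was used, and per the submitters' processing notes reads were counted with featureCounts and checked with FastQC 0.11.7. The aligner, genome build, annotation and strand setting were not given in the sources used here. Columns were matched to mice by the animal code in the titles. The whole table was fitted with edgeR 4.0.16 in R 4.3.3 (quasi-likelihood test, TMM scaling, default expression filter, genotype as the only term), and p was adjusted by Benjamini-Hochberg over the 13537 genes tested. SE values were derived from the fold change and its F statistic. The script was tested on simulated data. Alternatives used DESeq2 1.42.0, limma 3.58.1, other scalings and filters, a replicate block and each library left out. Exon lengths came from GENCODE M21 and promoters from RefSeq. The members and lists were chosen with earlier results of these data known. All members could be named, and from each list up to 4 called genes with the smallest adjusted p or, with none called, the 2 most abundant, plus Mdm2 and a few defining target and cell type genes. Of 255 list entries, 7 were matched through an older symbol. The alteration shared by both genotypes and 1 gene that the naming rule selected are not reported here.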

Additional observations from a re-analysis of the deposited data

How the results depend on the processing

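Over all genes, 802 calls became 1545 with DESeq2 and 1323 with limma-voom, and 19 to 626 with a library left out. Members called numbered 2 to 4 under the other scalings, filters and tests and 0 to 2 with a library left out. Members without overlap numbered 8 under both other scalings, but not in the same directions. With DESeq2's size factors 6 were higher and 2 lower, as in the main fit, and with library totals 7 were higher and 1 lower. With a library left out they numbered 8 to 13, but dropping a mouse can only keep or add such members. That range is therefore no check of the count. Calls in the pathway lists were 7, beside 11 with library totals, 17 with DESeq2, 11 with limma-voom and 0 to 7 with a library left out. The mesothelial sum without Krt18 was added after seeing the data. With the replicate number as a block, 835 genes and 3 members were called, Dkk3, Lgr4 and Frzb, and Wls had an adjusted p of 0.0636. The deviations of same-numbered mice correlated at 0.303, 0.00858 and 0.144. Mice numbered 1 and 3 correlated best with their own number, and those numbered 2 did not. With 3 mice per genotype this cannot decide whether the numbers pair the mice. Small differences changed sign: with library totals those of Znrf3 (0.017), Lrp6 (0.10), Fzd4 (0.049) and Dvl1 (0.12), with limma-voom that of Fzd7 (−0.0235), and that of Ctnnb1 with DESeq2's size factors (−0.0065), DESeq2 (−0.015) and limma-voom (−0.029). With a library left out, Fzd7 ranged from −0.093 to 0.55, Fzd5 from −0.14 to 0.18, Rnf43 from −0.088 to 0.20, Wnt9b from −0.19 to 0.84, Rspo1 from −0.083 to 1.16, Lrp6 from −0.23 to 0.0060, Fzd4 from −0.31 to 0.043, Ctnnb1 from −0.088 to 0.038, Stab1 from −0.050 to 0.22 and Vwf from −0.14 to 0.50. The causes were not tested.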
